A study of Drosophila melanogaster with 3 samples.

Results

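Open chromatin in 6 stretches of the Drosophila melanogaster genome with closely packed distal accessible sites was described in the pupal abdominal epidermis. The stretches are the domains of the protein-coding genes CG3777, crp, CG32639, CG15258, CG43072 and CG10283, that is 6 of 13922 protein-coding genes on the annotated arms. A domain is the sequence whose nearest protein-coding gene end is an end of its own gene. A peak belongs to a domain if its summit, the position of highest signal, lies there. Summits no more than 500 bp from an annotated gene's start or end coordinate are called gene-end summits, and every other summit is called distal. The 6 domains held 112 of the 34718 peaks in the list, of which 107 were distal and 5 lay at a gene end.

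The domains were chosen by this same peak list, for holding more than 6.7 distal summits per 10 kb, so their density is given below as a description and not as a finding. A domain lends its gene's name to sequence that may act on another gene. Genes that overlap or flank each domain are therefore named with their own peaks. They are called candidate targets by position only, and no target was tested. Measures that follow from the density, namely the share of a domain covered by peaks, the density over a host gene, the crowding in windows, the spacing and the share of gene-end summits, are descriptions in the same way.

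Accessibility was measured by ATAC-seq, which marks open DNA by where a transposase can cut and tag it. The tissue was abdominal cuticle with its attached epidermal cells from wild-type (WT) pupae, collected 38 to 45 h after puparium formation, and internal organs had been removed. There was 1 group of 3 replicates with 50 pooled pupae each. All values come from 1 merged peak list, so no replicate error, no test and no comparison between conditions could be made, and sequencing depth per replicate is unknown.

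During pupal life, of which this window is a part, the adult abdominal epidermis forms bristles and hairs and, in time, the pigmented cuticle. It is built by small nests of diploid histoblasts that replace the larval cells. Developmental genes in Drosophila are commonly controlled by enhancers, short accessible elements bound by transcription factors. Enhancers can sit in introns or in intergenic sequence, and they may skip the nearest gene. Nearness to a gene end therefore assigns no target, and the gene table gives spans only, so introns, exons and UTRs are not told apart below. In a pooled tissue, a site open in more cells and a site more open in each cell cannot be told apart.

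The tissue label was checked with marker genes. A summit lay within 500 bp of an own end of 9 of 10 epidermal genes (among them grh, shg and kkv, but not crb), and the share over all protein-coding genes was 65.6%. Of the other markers, the same held for 7 of 7 muscle, 4 of 6 neuronal, 4 of 6 hemocyte, 1 of 2 tracheal, 2 of 5 fat body, 2 of 5 gut enzyme and 4 of 5 germline genes. Whether cells other than the epidermis contributed peaks to the 6 domains was not tested.

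Density was highest in the CG3777 domain, with 17 distal summits in 22.6 kb, or 7.52 per 10 kb. The crp domain had 18 in 24.5 kb (7.35 per 10 kb) and the CG32639 domain 16 in 21.8 kb (7.34 per 10 kb). Slightly lower were CG15258 with 28 in 41.2 kb (6.79 per 10 kb), CG43072 with 14 in 20.6 kb (6.78 per 10 kb) and CG10283 with 14 in 20.8 kb (6.74 per 10 kb). All 6 thus lay within a narrow range of densities, whose lower end was set by the threshold of 6.7 per 10 kb. Together the 6 domains held 7.06 distal summits per 10 kb and the rest of the domains 1.78 per 10 kb, a ratio of 3.97. They made up 0.113% of the domain sequence and held 0.448% of the distal summits.

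All 6 domains are longer than 20 kb. The choice of members named no length, so the limit of 20 kb used below was set after the members' lengths were seen. Of 13752 domains, 166 (1.21%) exceeded 6.7 distal summits per 10 kb, and 158 of those were shorter than 20 kb, with a median length of 4.28 kb. Of the 1559 domains of 20 kb or more, 8 (0.513%) exceeded the threshold and the median was 2.12 per 10 kb. The 2 others past it were Eip78C, an ecdysone-induced nuclear receptor gene, with 16 distal summits (7.47 per 10 kb), and baz, which encodes the apical polarity protein Bazooka, with 15 (6.93 per 10 kb). Just under the threshold were SrpRbeta with 14 (6.62 per 10 kb), jvl with 15 (6.46 per 10 kb) and rols with 15 (6.43 per 10 kb).

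**Figure D1:**
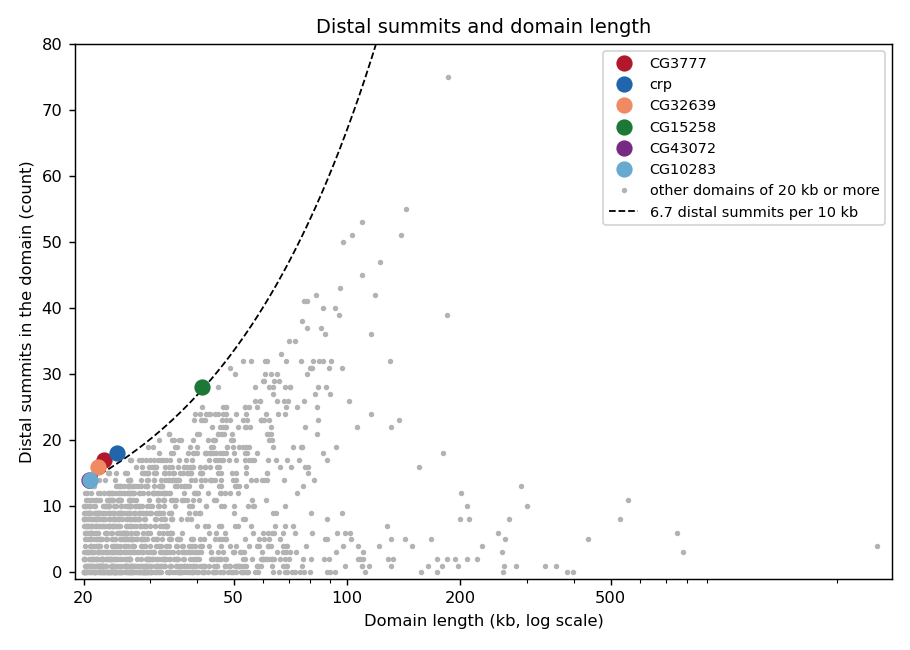
Number of distal summits (vertical axis) against domain length in kb (horizontal axis, log scale) for the 1559 domains of 20 kb or more. Coloured points are the 6 member domains, with 14 to 28 distal summits, grey points are all others, and the dashed line marks 6.7 distal summits per 10 kb.

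The CG3777 domain lies near the tip of the X chromosome, next to the pigmentation gene y (yellow) and the bristle-forming proneural genes ac and sc. Its gene spans X:279703–350504 on dm6 and contains or overlaps several others, so the domain falls into separate stretches at the ends of the gene. The lower stretch, X:274106–279710, lay inside ewg, a gene for an NRF-1-related transcription factor needed in nerve and flight muscle, and held 2 distal summits. The higher stretch, X:333540–350535, held the other 15, all inside both CG3777 and the overlapping gene CG32816.

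Fold enrichment is the ratio, assigned to each peak by the authors' peak caller, of overlapping reads (pileup) at the summit over the local background. It ran from 1.67 to 3.11 in this domain with a median of 2.15. The highest of the 17 was at X:334615–335006, with a fold enrichment of 3.11. Its recovered pileup was 185 overlapping reads (95% Poisson interval 159 to 214, counting error only) over a background of 58.8 reads, and its summit lay 15679 bp from the end of CG3777. It stood in a group of 4 neighbouring peaks at the low edge of the stretch, whose members had fold enrichments of 1.97, 2.41, 3.11 and 2.57. The next highest were at X:278045–278342 inside ewg (2.84) and X:342732–343240 inside CG3777 and CG32816 (2.77). Widths ran from 170 to 509 bp with a median of 240 bp. Among the 569 domains of 20 kb or more with at least 10 distal summits, 2.64% had a lower median width.

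The y gene itself, 6.01 kb beyond the end of CG3777, had 2 gene-end peaks at fold enrichments of 1.91 and 2.44 and only 2 distal summits in a domain of 10.7 kb (1.86 per 10 kb). The 6.01 kb between CG3777 and y held 2 distal summits, at most 1.87-fold. The protein-coding genes next to CG3777 beside these were CG43181 and CG13376. CG43181, 0.062 kb above CG3777, had a gene-end peak at 1.96. CG13376, 12.7 kb below CG3777, had gene-end peaks of up to 2.22. Neither had a distal summit in its domain, but these domains, of 1.565 and 2.907 kb, leave little room for one. Between the stretches of the domain, within CG3777, lie CG13375, with a gene-end peak at 2.06 and no distal summit in its domain, and CG12470 and Or1a, with no gene-end peak and with 2 and 1 distal summits. The mir-980 hairpin lies there too, 0.985 kb from the gene-end summit that CG3777 shares with ewg. Further on, ac, 19.5 kb from CG3777, had a gene-end peak at 3.23 and 5 distal summits in its domain, and sc, 45.6 kb away, had gene-end peaks at 2.94 and 1.63 and 2 distal summits. The dense stretch of CG3777 was thus set among domains with fewer distal summits, since those of y, ac and sc had 1.86, 2.80 and 0.995 per 10 kb. Read over the whole 70.8 kb of the gene, CG3777 held 22 distal summits or 3.11 per 10 kb, higher than 58.5% of the 1012 protein-coding genes that span 20 kb or more (median 2.55 per 10 kb). Of these 22, 15 lay in the stretch at the end of the gene towards y. CG32816 spans 154 kb, from within CG3777 to beyond sc, so that y, ac and sc lie inside it. It held 37 distal summits, or 2.40 per 10 kb, higher than 47.8% of the long genes. By position CG3777, CG32816 and the other genes named here are the candidate targets.

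The crp domain is nearly the crp gene alone. crp (cropped) encodes the fly AP-4, a basic helix-loop-helix leucine zipper transcription factor known for its role in the growth of fine tracheal branches. The gene spans 2L:16263556–16287730, and all 18 distal summits lay inside it. Fold enrichment was modest and even, from 1.51 to 2.29 with a median of 1.84. The peak with the highest ratio was at 2L:16279976–16280263 (2.29), with a pileup of 239 reads (95% Poisson interval 210 to 271) over a background of 104 reads. Those at 2L:16267962–16268611 (2.21) and 2L:16268987–16269972 (2.12) lay side by side, with summits 4700 and 6027 bp from the lower end of the gene. The second of them was 986 bp wide, the widest distal peak in the 6 domains.

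Modest ratios in crp went with high read counts. Pileup ranged from 154 to 239 reads with a median of 190, and all 18 peaks were above the median of 144 reads for distal peaks outside the 6 domains. The local background ranged from 93.8 to 116 reads, also above the upper quartile of 84.3 reads for those other peaks at all 18. A gene-end peak at 2L:16287135–16287878 (fold enrichment 1.95) covered the higher end of crp, and none lay within 500 bp of the lower end. Over its span crp had 7.45 distal summits per 10 kb, higher than 99.9% of the 1012 long genes.

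The nearest neighbours of crp had no distal summit in their domains. These are 0.74 to 3.23 kb long and leave little or no room more than 500 bp from every gene end. Their lack of distal summits is therefore no contrast with crp. CG4935, 0.073 kb below, had a gene-end peak at 1.53 and twe, a Cdc25 phosphatase gene of the germline, had none. On the other side pkaap had a gene-end peak at 1.81 and CG17329 none. No gene of the regulator list lay within 50 kb of the crp domain, and the same held for CG32639, CG43072 and CG10283. By position crp, CG4935, twe, pkaap and CG17329 are the candidate targets.

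The CG32639 domain lies wholly inside mew, so that all of its peaks lie in the mew gene. mew encodes the alpha-PS1 integrin subunit, which attaches epidermal cells to the matrix beneath them. CG32639 is a gene of 642 bp (X:13235925–13236566) nested in the 44.1 kb of mew (X:13214409–13258490), and it divides mew's interior in the nearest-end count. All 16 distal summits were inside mew, and no summit lay at an end of CG32639.

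Fold enrichment in mew's interior ran from 1.52 to 2.98 with a median of 2.18. The highest peaks were a neighbouring pair at X:13226087–13226567 (2.98) and X:13226712–13227079 (2.94), 9487 and 9102 bp from CG32639. The first of the pair had 183 reads at the summit (95% Poisson interval 157 to 212) over a background of 60.8 reads. A wider peak of 741 bp followed at X:13232204–13232944 (2.77). The peaks came in groups, and the longest distance between neighbours was 4814 bp. Peak sequence made up 30.9% of the domain, against a median of 8.91% over the 1559 domains of 20 kb or more. It is the highest of these shares, which follows in large part from the density by which the domain was chosen.

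By span, mew held 23 distal summits (5.22 per 10 kb, higher than 94.1% of the long genes), including 5 in the domain of CG15742, a gene at its higher end, and 2 in the domain of mew itself. Its higher end had a gene-end peak of 2.27, shared with CG15742, and its lower end had none within 500 bp. CG15742 had another gene-end peak at 2.83. REG, the neighbour below, had a gene-end peak at 2.10 and no distal summit in its domain of only 2.41 kb. By position mew, CG32639, REG and CG15742 are the candidate targets.

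The CG15258 domain is the only one of the 6 whose distal summits lie outside genes, and it occupies part of the sequence between the Snail-family genes esg and wor. esg (escargot) encodes a zinc-finger repressor that keeps abdominal histoblasts diploid, and wor (worniu) is a relative known from neural stem cells. CG15258 itself is a gene of 707 bp at 2L:15360921–15361627 without a peak at either end, 24.8 kb above esg and 61.7 kb below wor. None of its 28 distal summits lay in an annotated gene.

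Fold enrichment ran from 1.51 to 2.82 with a median of 1.90. The highest peaks were spread over the domain, at 2L:15363275–15364074 (2.82), 2L:15350140–15350924 (2.60) and 2L:15382521–15383169 (2.46). Their summits lay 1962 bp above, 10082 bp below and 21133 bp above CG15258. The strongest had a pileup of 186 reads (95% Poisson interval 160 to 215) over 65.2 reads. Of the 28 peaks, 11 were narrower than 250 bp.

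Dense distal sites continued on both sides. The neighbouring esg domain held 12 distal summits in 22.1 kb (5.42 per 10 kb), that of nht 9 (5.08 per 10 kb) and that of CG44869 16 (5.15 per 10 kb). The whole interval from esg to wor, 87.2 kb, held 51 distal summits, or 5.85 per 10 kb, with a highest fold enrichment of 3.03 between esg and CG15258. Both named regulators had strong gene-end peaks, at 3.63 for esg and at 2.75 and 3.30 for wor, higher than every distal peak in the CG15258 domain apart from the one at 2.82, which exceeded the weaker wor peak. The wor domain itself had 1 distal summit. From the domain's edges, esg lay 12.4 kb away, CG44869 28.2 kb, nht 29.6 kb and wor 33.5 kb. By position these genes and CG15258 are all candidate targets, and the list does not separate them.

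The CG43072 domain lies wholly inside siz. siz (schizo, also called loner) encodes a guanine nucleotide exchange factor for Arf GTPases and is known for its role in myoblast fusion. CG43072 is a gene of 387 bp (3L:21065852–21066238) nested in the 40.9 kb of siz (3L:21034535–21075444). All 14 distal summits were inside siz, and 2 more peaks, at fold enrichments of 1.93 and 1.71, lay within 500 bp of the nested gene's ends and so also inside siz.

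Fold enrichment ran from 1.37 to 2.46 with a median of 1.85. The highest peak, at 3L:21067602–21067953 (2.46), had its summit 1540 bp above CG43072, and it was followed by 3L:21052031–21052604 (2.31) and 3L:21056613–21057220 (2.24). The last of these had the highest pileup of the domain, 227 reads (95% Poisson interval 198 to 259), over a background of 101 reads. Of the 14 distal peaks 3 had a fold enrichment above 2.

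siz as a whole held 25 distal summits, or 6.11 per 10 kb, higher than 98.2% of the long genes. Its own gene-end peak at the lower end, shared with CG10581, reached 2.75, above all of its distal peaks. The next gene, ko, was also dense, with 28 distal summits inside its 55.6 kb (5.04 per 10 kb, higher than 91.4% of the long genes) and gene-end peaks of 2.82 and 2.07. By position siz, CG43072, CG10581 and ko are the candidate targets. A gene-end summit was found at 7 of 7 muscle and 9 of 10 epidermal markers, against 65.6% of all protein-coding genes. The part of muscle in the peaks at siz was not tested.

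The CG10283 domain is shared between CG10283 and the host transcript of the let-7 complex. lncRNA:let7C is the primary transcript of the microRNAs miR-100, let-7 and miR-125, which are induced during metamorphosis and time the change from larval to adult fates. CG10283 spans 2L:18472964–18484513, and lncRNA:let7C spans 2L:18455717–18473132, so they overlap slightly at their ends. Of the 14 distal summits 7 lay inside lncRNA:let7C and 7 inside CG10283.

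Peaks in the let-7 transcript had a median fold enrichment of 1.86 and those in CG10283 one of 1.67. The highest distal peaks were at 2L:18480437–18480989 (2.15) and 2L:18475589–18476375 (2.12), both in CG10283, and at 2L:18469711–18470507 (2.05) in the let-7 transcript. The last of these was the summit nearest to the miR-100 hairpin, at a distance of 1.58 kb, and to the let-7 hairpin, at 2.16 kb. For the miR-125 hairpin the nearest was that at 2L:18474111–18474525 (1.62), on the side of CG10283 and 2.04 kb away.

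Counted over its whole 17.4 kb, lncRNA:let7C held 12 distal summits (6.89 per 10 kb), and its lower end had a gene-end peak of 2.39. CG10283 held 7 in 11.6 kb (6.06 per 10 kb), with a gene-end peak of 2.30 at its higher end. Beyond it, grnd, the gene of a tumour necrosis factor receptor, had a gene-end peak of 2.45, and kon, which encodes a transmembrane protein needed for muscle attachment, had 10 distal summits in 16.2 kb (6.16 per 10 kb). Below the let-7 transcript, Ntf-2r had 5 distal summits in its domain (5.22 per 10 kb) and gene-end peaks of up to 2.53, and bsf had no distal summit. By position the candidate targets are the let-7 complex, CG10283, Ntf-2r, bsf, grnd and kon.

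**Figure D2:**
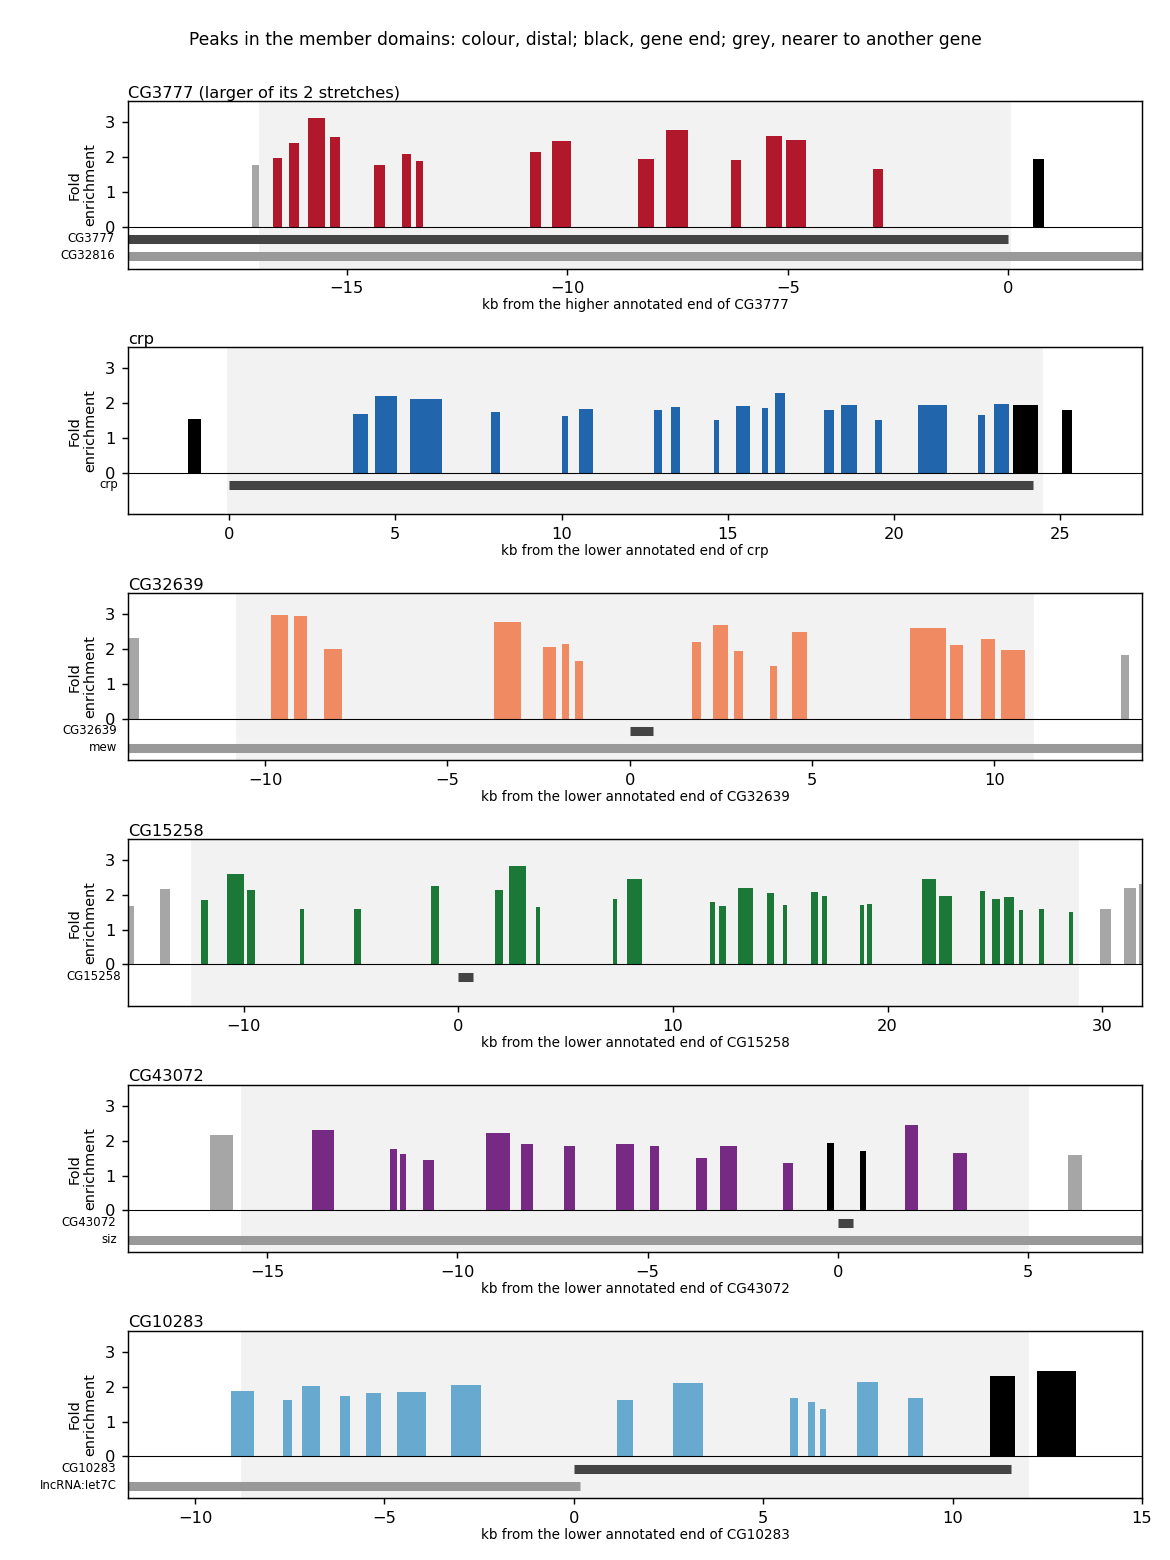
Fold enrichment (vertical axis, ratio) of each peak drawn to its width against distance in kb from the named end of the member gene, 1 panel per domain (shaded; for CG3777 the larger of its stretches). Coloured bars are distal peaks, black bars gene-end peaks of any gene and grey bars distal peaks nearer to another gene, with genes drawn below as dark (member) and light (host or overlapping) bars. The CG32639 and CG43072 peaks all lie inside mew and siz, and those of CG15258 lie in no gene.

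As a set, the distal peaks had nearly the same fold enrichment as those elsewhere. Whether the local background, and with it the ratio, depends on how closely peaks are packed was not tested. The median ratio was 1.93 (interquartile range 1.71 to 2.18, n = 107 peaks) in the 6 domains and 1.92 (1.68 to 2.27, n = 23756 peaks) outside them. Only 1 of the 107 peaks (0.935%) reached a ratio of 3, against 3.95% of other distal peaks, and the highest ratio was 3.11 in the 6 domains and 4.45 outside them. Median width was 320 bp in the 6 domains and 348 bp outside them. The direction of this difference of −28 bp was not stable, since it was 0 bp with gene ends within 250 bp, 7 bp without the CG3777 domain and 4 bp without the CG15258 domain. The medians of the single domains ran from 240 bp at CG3777 to 403.5 bp at CG10283. A q-value under 1e-05 was reached by 98 of the 107 peaks (91.6%), against 84.4% of the other distal peaks.

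The reads behind the ratio differed among the domains. Median pileup and background were 141 and 61.8 reads at CG3777, 155 and 58.7 reads at CG32639 and 141 and 66.8 reads at CG15258. They were 190 and 104 reads at crp, 172 and 92.4 reads at CG43072 and 198.5 and 109 reads at CG10283. Those at crp, CG43072 and CG10283 thus had more reads at the summit over a higher local background, and their median ratios were lower, at 1.84, 1.85 and 1.77. In comparison, other distal peaks had a median pileup of 144 reads and a median background of 69.8 reads.

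Among the 569 domains of 20 kb or more with at least 10 distal summits, the median background at CG10283 was the 9th highest and that at crp the 27th. By median pileup they were the 6th and the 16th. CG3777 and CG32639, both on X, lay on the other side, with backgrounds higher than only 20.9% and 14.2% of the domains but median ratios higher than 90.0% and 91.7%. Within X the differences were smaller. The median ratio was 2.15 at CG3777 and 2.18 at CG32639, against 2.03 at other distal peaks on X, and the median background was 61.8 and 58.7 reads, against 61.6 reads. The background has a floor of 57.2 reads, also the lower quartile of distal peaks outside the 6 domains. At this floor lay 2 of 17 distal peaks at CG3777 and 4 of 16 at CG32639, so low background ranks are limited by it. Other distal peaks on 2L and 3L had median ratios of 1.92 and 1.91 over backgrounds of 69.2 and 71.9 reads.

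Counted by domain, 2 of the 6 had a median ratio above that of all distal peaks, where 48.2% of the 569 domains did. For background the count was 3 of 6, against 60.8%. It was 2 of 6 for width, against 58.5%, and 4 of 6 for pileup, against 56.6%. With 6 domains these counts are read no further.

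**Figure D3:**
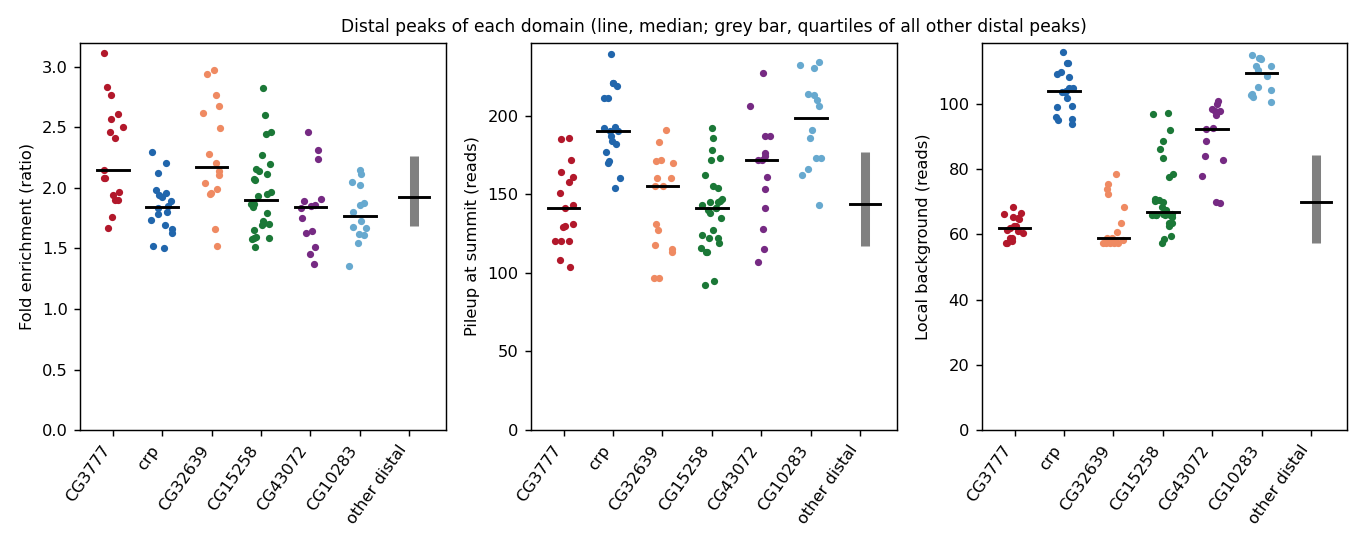
Fold enrichment (ratio), recovered pileup at the summit (reads) and local background (reads) of every distal peak in the 6 domains; lines are medians, and the grey bar spans the quartiles of all other distal peaks. At crp and CG10283 the lowest background values are 93.8 and 100.5 reads, whereas the highest at CG3777 is 68.4 reads.

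Neighbouring distal summits within the domains lay a median of 998.5 bp apart (interquartile range 609 to 1703 bp, n = 100 distances), against 1424 bp in the other domains. This follows in part from the density by which the domains were chosen. Of the 100 distances, 9 exceeded 3 kb, against 24.2% of those elsewhere, and the longest was 4814 bp. The median per domain ran from 621 bp at CG3777 to 1167 bp at CG43072. The closest neighbours were 252 bp apart, in the CG43072 domain.

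**Figure D4:**
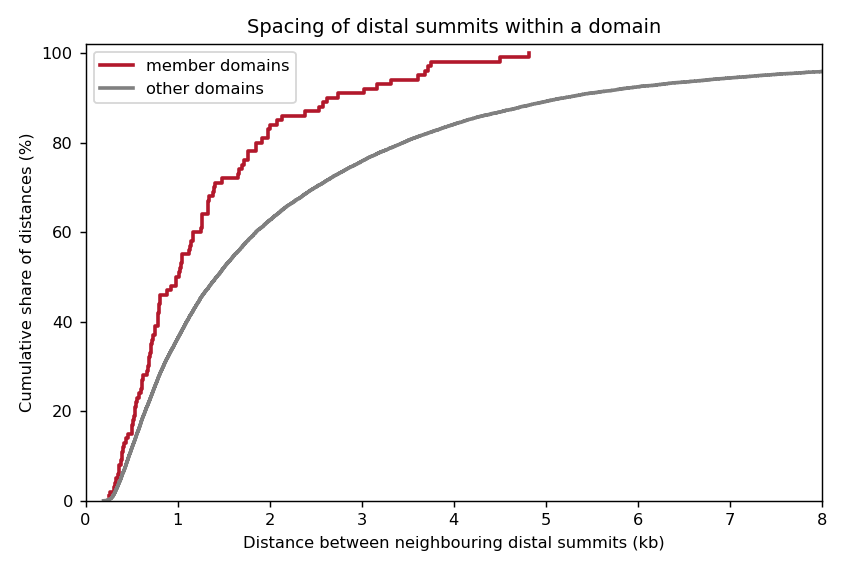
Cumulative share (%) of distances between neighbouring distal summits of the same domain, up to 8 kb, for the 6 member domains (red, 100 distances) and all other domains (grey). The medians are 998.5 bp for the red curve and 1424 bp for the grey curve, and the red curve ends at 4814 bp.

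Summits were most crowded in CG3777, crp and CG15258, where a window of 10 kb beginning at a distal summit of the domain held up to 11. Such a window may run past the domain's edge. As many were found in 0.105% of the 23863 windows that begin at a distal summit, whose median was 4. The highest count was 10 at CG43072, 9 at CG32639 and 7 at CG10283, and 13.9% of all windows held 7 or more.

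The 6 domains differed in how many summits lay beside them. In the 50 kb below and above the domain there were 28 and 25 summits of all classes around CG15258, and 26 and 29 around CG43072. Over the whole list 50 kb held 13.0 on average. The counts below and above were 13 and 18 for crp, 12 and 21 for CG10283, 12 and 19 for CG3777 and 10 and 22 for CG32639. In these 4 the lower side was thus at or below the average and the higher side above it. For CG3777 the lower count begins below X:274106, the edge of its smaller stretch. The sequence between its stretches, next to the dense one, is in neither count. How far the dense stretch of CG3777 ran on below is therefore not shown.

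**Figure D5:**
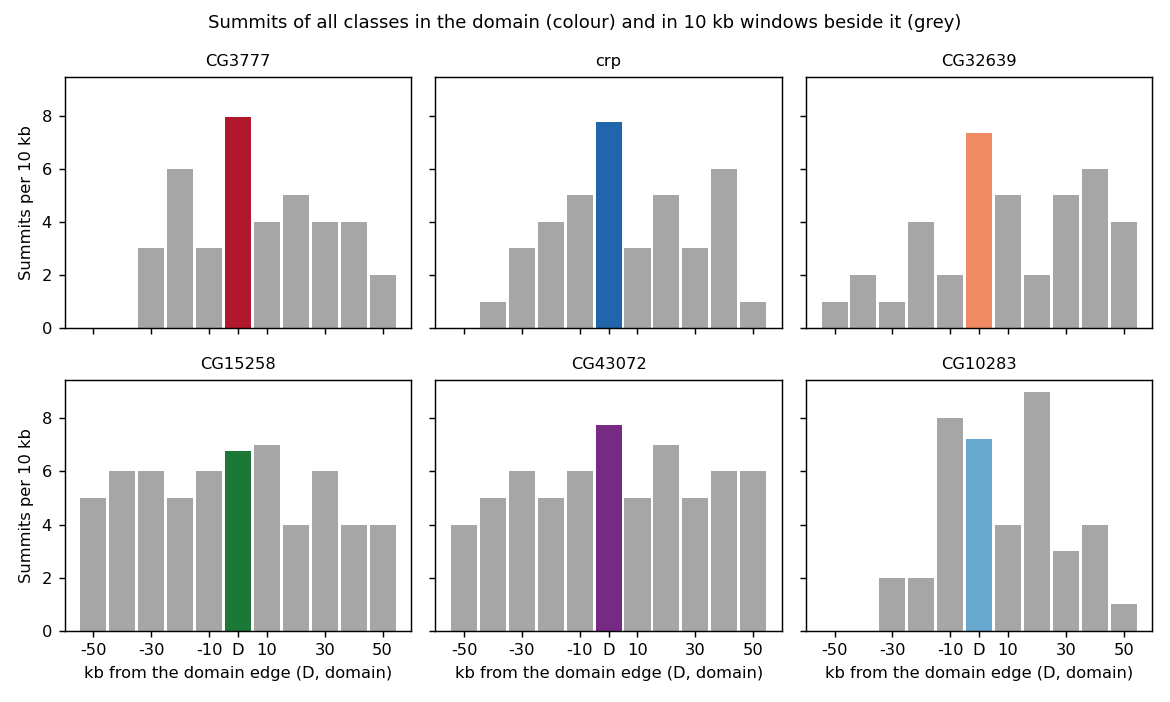
Summits of all classes per 10 kb in each domain (coloured bar, D) and in 10 kb windows out to 50 kb on both sides (grey bars). Around CG15258 and CG43072 every grey window holds at least 4 summits, whereas the windows farthest below CG3777, crp and CG10283 hold none. For CG3777 the windows below start at the edge of its smaller stretch, not of the dense one.

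Position relative to genes was shared by 5 of the 6. All 79 distal summits of these 5 lay inside an annotated gene, and none of the 28 at CG15258 did. Pooled, 73.8% of the 107 did, against 75.4% of other distal summits. The pooled share was thus set by whole domains. The summits are not independent, and the closeness of the 2 shares is read no further. More than 5 kb from any gene end lay 69 of the 107 distal summits (64.5%), against 40.5% of the others. Because domains of 20 kb or more leave room for such distances, this share depends on domain length as well.

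Gene-end peaks made up 4.46% of the summits in the 6 domains and 31.4% elsewhere, a contrast that the choice of long domains with many distal summits brings with it. An own gene-end summit was found at 4 of the 6 member genes, where 65.6% of protein-coding genes have one. That at CG3777 (fold enrichment 2.82) is also within 500 bp of the end of ewg, and its summit lies inside ewg. Those at crp (1.95), CG43072 (1.93 and 1.71) and CG10283 (2.30) were no higher than the highest distal peak of the same domain, except at CG10283.

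Eip78C and baz, the other domains past the threshold, were set beside the members after their values were seen. The crp domain had a median pileup of 190 reads over a background of 104 reads and a median ratio of 1.84, against 175 reads over 107 reads and 1.64 at Eip78C. On X, CG3777 had 141 reads over 61.8 reads and a ratio of 2.15, against 136 reads over 59.7 reads and 2.04 at baz.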

How the data were processed

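ATAC-seq peaks of 3 replicates were taken from 1 merged peak list. The tools BWA, SAMtools, Picard and MACS2 and the build dm6 are named per the submitters' processing notes. Information on versions, settings and replicate merging was not given in the sources used here. A peak in the deposited list has a linear fold enrichment ratio, a −log10 p-value and a −log10 q-value at its summit, and an integer score, which was not used. The pileup and local background were recovered from the deposited ratio and −log10 p as (pileup + 1) / (background + 1) and a Poisson tail. A whole pileup within a tolerance of 0.002 was found for all 34718 peaks, and the lowest background was 57.2 reads, a floor shared by many peaks. This step and the assignment to genes were tested on simulated data.

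Genes came from a RefSeq table of the same assembly (Release 6), which gives spans without strand, exons or UTRs. No genome sequence was used here, and coordinates are 1-based. Domain edges are the midpoints between ends of protein-coding genes; an end shared by several genes went to the first gene ID, which left 13752 domains. The 6 genes, the marker lists and the regulator list (228 of 247 symbols found) were chosen with earlier results of these data known. Genes named are the members, the nearest 2 protein-coding genes on each side, listed regulators within 50 kb, the 3 peaks of highest ratio in each domain and the 3 domains just under the threshold. Genes overlapping a domain, Eip78C and baz were named after their values were seen. Python 3.11.15, pandas 2.3.3, NumPy 2.4.6, SciPy 1.17.1 and matplotlib 3.10.9 were used.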

Additional observations from a re-analysis of the deposited data

How the results depend on the processing

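The alternatives changed the distance that counts as a gene end, the peaks used, the genes that define domains, the reach of a domain, the position of a peak and the merging of close summits, and left out each domain in turn. The density of the 6 domains was 3.50 per 10 kb with the 17359 peaks of highest −log10 q, against 0.760 in the rest (ratio 4.60), and 6.47 per 10 kb with q under 1e-05 (ratio 4.31). Under the other alternatives it was 6.88 to 7.19, with ratios from 3.58 to 4.61. With the 17359 peaks the median distance between neighbours was 1918.5 bp and the difference in median width −114 bp. Without the CG15258 domain 100% of the distal summits lay inside a gene, and without each of the other domains in turn 68.5% to 69.9%. Leaving out each domain gave densities of 6.98 to 7.16, distances of 925 to 1046 bp and width differences of −41 to 7 bp; the width difference was 0 bp with gene ends within 250 bp and −2 bp with close summits merged. Within 250 bp, 2 of the 6 genes had a gene-end summit. The share of all protein-coding genes was computed at 500 bp only (65.6%), so the count at 250 bp has no share beside it. Leaving out each domain gave 3 to 4 of the remaining genes. The difference in median ratio was −0.136 to 0.0310 over all alternatives, with both signs and always smaller than the spread between the domains' medians (SD 0.173). Single domains lay under the threshold of 6.7 per 10 kb in several alternatives: all 6 with the 17359 peaks (2.91 to 4.58), CG32639 (6.42), CG15258 (6.06), CG43072 (5.33) and CG10283 (6.26) with q under 1e-05, CG15258 (5.91) and CG10283 (6.16) with domains from all annotated genes, CG15258 (6.04) with domains limited to 20 kb, and CG15258 (6.55) and CG43072 (6.30) with close summits merged. No paired analysis was possible because the list merges the replicates, and for the same reason no replicate could be left out. Depth limits single peaks: a pileup of 161 reads, the median in the 6 domains, has a 95% Poisson interval of 137 to 188 reads.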
